A study of Homo sapiens with 18 samples.

Results

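The tumor suppressor p53 is a transcription factor that is kept scarce in unstressed cells and stabilized after DNA damage and other stresses. It then switches on genes that arrest the cell cycle, repair DNA, retune metabolism or trigger apoptosis, and one of these, MDM2, encodes the ubiquitin ligase that marks p53 for destruction and so closes a feedback loop. The 8 genes described here are direct p53 targets with different tasks: CDKN1A and PLK2 act on the cell cycle, MDM2 in feedback, BBC3 and AEN in cell death, SESN1 and TIGAR in metabolism, and ZMAT3 in RNA binding. They were found on the panel by symbol, 8 of its 20802 targets, and all 8 were among the 10212 targets tested. PLK2 passed the count minimum only through the depleted libraries, with 197 counts there and 8 in the control libraries, while the other 7 had over 100 counts in the controls alone. The mRNA of p53 itself was not analysed here.

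RKO cells, a human colorectal carcinoma line with wild-type p53, received 30 nM of 1 siRNA and were harvested after 72 h. The nontargeting siRNAs were siCtrl#1 and siCtrl#2, and the ESCRT-I subunits Tsg101 and Vps28 were each depleted with a pair of single siRNAs (siTsg101#1, siTsg101#2, siVps28#1 and siVps28#2). ESCRT-I sorts ubiquitinated membrane proteins on endosomes for degradation in lysosomes. Each of the 6 siRNAs had 3 biological replicates, 18 libraries in all, and each of the 3 batches held 1 library of every siRNA.

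The libraries had 2561790 to 7466916 reads on genes (median 5022216), from a panel that reads 1 short amplicon per transcript. Levels are given as normalized CPM, read counts scaled to a common library size by TMM, and are compared between libraries, not between genes. A gene was called where the edgeR quasi-likelihood test gave at least a 1.5-fold difference with a Benjamini-Hochberg adjusted p-value under 0.05 over all tested genes. TSG101 mRNA was lower upon Tsg101 depletion (log2 -4.97 against siCtrl#1 and -4.78 against siCtrl#2), and VPS28 mRNA was lower upon Vps28 depletion (-4.11 and -3.65), as the labels of the libraries state. Of 7 epithelial markers, EPCAM, KRT8, KRT18 and CDX2 had at least 10 counts in every library, CDH1 was at 0 in all 18 and KRT19 and VIL1 did not exceed 2 counts. EPCAM was called higher and KRT8 lower upon Tsg101 depletion against siCtrl#1 (log2 0.83 and -0.91), and EPCAM higher with siCtrl#2 than with siCtrl#1 (log2 1.02). Their part in the results was not tested. Of the markers of other cell types, PTPRC and CD3E, of blood cells, were at 0 throughout. PECAM1, of endothelium, reached at most 2 counts in a library, and COL1A1, of fibroblasts, at most 11. As in any bulk sample, fewer cells expressing a gene and less of its RNA per cell cannot be told apart.

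Because p53 acts by binding DNA, the promoter windows of the members were searched for its consensus element, a pair of half-sites of 10 bases each without a spacer, with up to 3 mismatches and with the central C and G of each half-site required. RefSeq windows (GRCh38.p14) from 250 bases before to 50 bases after a transcription start were found for all 8 genes, 14 windows in all. The pattern is its own reverse complement, so that searching 1 strand covers both. A full element lay in windows of MDM2, AEN and SESN1, against 392 of the 35114 windows of the same length in the table (1.12%). An exact half-site, a looser pattern that can be part of a full element, lay in windows of PLK2, AEN and SESN1, against 6.63% of all windows. Both shares count windows, while the matches are given by gene. MDM2, SESN1 and ZMAT3 had more than 1 window each, and the MDM2 element was met again in an overlapping window. The members were also chosen as p53 targets. The stretches that hold these matches are shown to let the promoter sequences be set beside the expression of each gene below; capitals mark the full element, or the half-site in PLK2, and each stretch ends at or before the start site.
MDM2, chr12:68808883-68808982, plus strand: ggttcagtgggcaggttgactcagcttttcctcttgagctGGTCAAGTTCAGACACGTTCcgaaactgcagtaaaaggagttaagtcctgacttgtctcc
AEN, chr15:88621266-88621339, plus strand: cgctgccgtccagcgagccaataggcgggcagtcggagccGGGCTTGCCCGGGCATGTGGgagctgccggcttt
SESN1, chr6:109008989-109009077, minus strand: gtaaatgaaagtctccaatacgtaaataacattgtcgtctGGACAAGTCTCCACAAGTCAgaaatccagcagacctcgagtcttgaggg
PLK2, chr5:58460164-58460263, minus strand: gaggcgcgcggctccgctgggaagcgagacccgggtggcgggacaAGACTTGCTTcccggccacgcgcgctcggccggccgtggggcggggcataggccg
The elements of MDM2 and AEN had 2 mismatches and that of SESN1 had 3, and they began 94, 34 and 49 bases before a start. No full element or exact half-site was found in the windows of CDKN1A, TIGAR, BBC3 or ZMAT3, which says only that these letters are not in those windows.

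To ask whether ESCRT-I depletion changed p53 target mRNAs, both siRNAs of a subunit were averaged and set against each nontargeting siRNA separately. The answer depended on the gene and on the control. TIGAR was called higher upon Tsg101 depletion against both controls and was not called upon Vps28 depletion. CDKN1A was higher against siCtrl#1 and was not called against siCtrl#2, and MDM2, BBC3, AEN, SESN1 and ZMAT3 were called in none of the 4 comparisons. PLK2 was called higher in all 4, but since it was tested only because of its counts in the depleted libraries, its calls describe that choice and are no support. The 4 comparisons share their control or depleted libraries pairwise and are not independent of each other.

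Upon Tsg101 depletion, 3 of the 8 genes were called higher against siCtrl#1 (CDKN1A, PLK2 and TIGAR) and none lower, where 11.1% of all tested genes were called higher and 8.29% lower. Against siCtrl#2, 2 were called higher (PLK2 and TIGAR) and none lower, beside 8.83% and 6.04% of all tested genes. Upon Vps28 depletion, CDKN1A and PLK2 were called higher against siCtrl#1 and none lower, beside 6.36% and 5.9% of all tested genes. Against siCtrl#2 PLK2 alone was called higher and none lower, beside 4.15% and 3.67%. Without PLK2, 2, 1, 1 and 0 of the remaining 7 genes were called higher in these 4 comparisons. The median log2 fold change of the 8 genes was 0.24 and 0.39 upon Tsg101 depletion and 0.23 and 0.17 upon Vps28 depletion, against siCtrl#1 and siCtrl#2 respectively, while the median of all tested genes lay between -0.02 and 0.01. The medians of the 8 include PLK2 and carry the limit of its calls. Without PLK2 the middle values were 0.22 (SESN1) and 0.37 (MDM2) upon Tsg101 depletion. Upon Vps28 depletion they were 0.16 and 0.11 (both ZMAT3). Set against each other, siCtrl#2 differed from siCtrl#1 in CDKN1A, which was called higher, while none of the 8 was called lower, beside 1.41% and 0.676% of all tested genes.

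**Figure D1:**
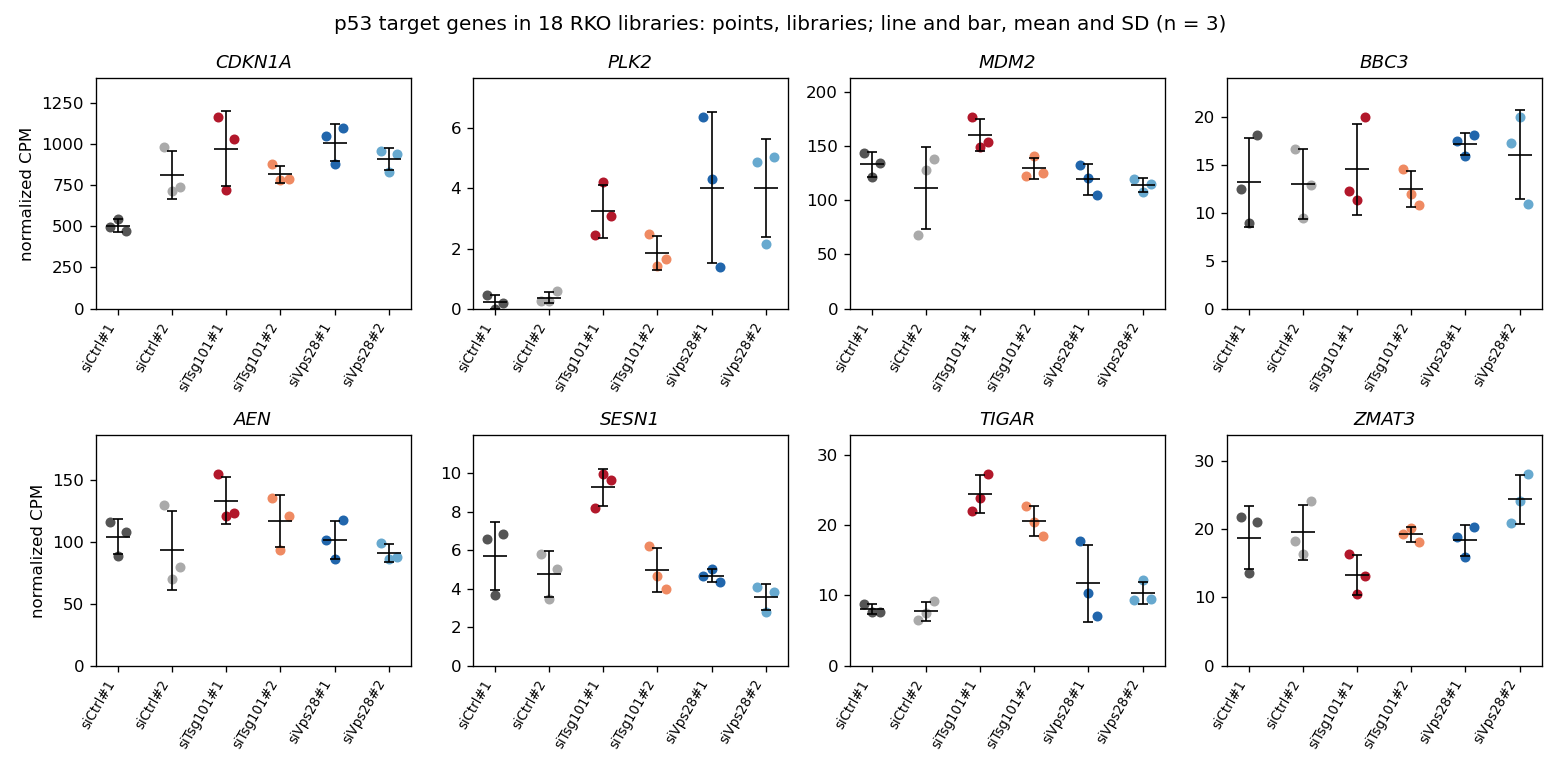
Normalized CPM (vertical axes, linear, from 0) of the 8 p53 target genes in the 18 libraries, grouped by siRNA on the horizontal axes; points are libraries, and the line and bar are the mean and SD of 3 replicates. CDKN1A is lowest with siCtrl#1, at 470 to 546 CPM, PLK2 is near 0 with both nontargeting siRNAs, and TIGAR is raised with both siTsg101 siRNAs, at 18.4 to 27.4 CPM.

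CDKN1A (ENSG00000124762, chr6:36644237-36655114 on the plus strand of GRCh37) encodes p21, the inhibitor of cyclin-dependent kinases through which p53 arrests the cell cycle. Replicates 1, 2 and 3 of siCtrl#1 held 494, 546 and 470 CPM of CDKN1A, and those of siCtrl#2 held 981, 715 and 739 CPM. With siTsg101#1 the libraries held 1165, 721 and 1030 CPM, and with siTsg101#2 876, 784 and 787 CPM. With siVps28#1 they held 1048, 880 and 1095 CPM, and with siVps28#2 958, 832 and 938 CPM. All 12 depleted libraries lay above all 3 siCtrl#1 libraries, and both sets of depleted libraries overlapped those of siCtrl#2.

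CDKN1A was thus 1.77-fold higher upon Tsg101 depletion than with siCtrl#1 (log2 0.82 ± 0.15 SE, edgeR adjusted p = 0.000308) and 1.9-fold higher upon Vps28 depletion (log2 0.93 ± 0.15, adjusted p = 0.000161). Against siCtrl#2 the differences were log2 0.13 (95% interval -0.17 to 0.44, adjusted p = 0.565) and 0.24 (-0.07 to 0.54, adjusted p = 0.353), so that a difference of 1.5-fold in either direction lay outside both intervals. The nontargeting siRNAs themselves differed by log2 0.69 ± 0.17 (1.61-fold higher with siCtrl#2, edgeR adjusted p = 0.0303). That call was lost when the fit held only these 2 groups (log2 0.69, adjusted p = 0.0778) and when any library of siCtrl#1, or replicate 1 or 3 of siCtrl#2, was left out (log2 0.53 to 0.75, adjusted p from 0.0579 to 0.117), while siCtrl#2 stayed above siCtrl#1 in each. Within batches, siCtrl#2 exceeded siCtrl#1 by 0.99, 0.39 and 0.65 on the log2 scale, Tsg101 depletion exceeded siCtrl#1 by 1.03, 0.46 and 0.94, and Vps28 depletion exceeded it by 1.02, 0.65 and 1.11. Within the same batches, depletion of Tsg101 exceeded siCtrl#2 by only 0.04 to 0.28 and depletion of Vps28 by 0.03 to 0.46. Each of the 4 single siRNAs gave a call for CDKN1A against siCtrl#1 (log2 0.70 to 1.00) and none gave one against siCtrl#2 (log2 0.01 to 0.31). The levels upon Tsg101 and Vps28 depletion did not differ by the test (log2 -0.10, 95% interval -0.35 to 0.14, adjusted p = 0.638). Exons of CDKN1A share 146 bases with the antisense gene DINOL, and the strand setting of the counting is not given in the sources used here.

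PLK2 (ENSG00000145632, chr5:57749809-57755966, minus strand of GRCh37), a polo-like kinase induced in stressed cells, was barely detected without depletion. The siCtrl#1 libraries had 2, 0 and 1 PLK2 counts, in the order of the replicates, and the siCtrl#2 libraries 1, 1 and 3. The siTsg101#1 libraries had 6, 16 and 22 counts and the siTsg101#2 libraries 16, 9 and 10. The siVps28#1 libraries had 22, 18 and 6 counts and the siVps28#2 libraries 30, 13 and 29. Each depleted library, at 1.37 to 6.39 CPM, lay above each control library, none of which exceeded 0.578 CPM. As PLK2 was tested only because of its counts in the depleted libraries, this separation describes that choice and is no support.

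Summed over libraries, PLK2 was 11-fold higher upon Tsg101 depletion than with siCtrl#1 (95% exact interval 3.64 to 54.6, which covers counting error only) and 6.46-fold higher than with siCtrl#2 (2.65 to 20.4). Upon Vps28 depletion the corresponding ratios were 17.7 (5.93 to 87.3) and 10.4 (4.33 to 32.6). The fitted log2 fold changes, which depend on the small number added to each count, were 3.34 ± 0.70 and 2.63 ± 0.63 upon Tsg101 depletion (edgeR adjusted p = 0.00111 and 0.00439) and 4.01 ± 0.66 and 3.31 ± 0.60 upon Vps28 depletion (adjusted p = 0.000163 and 0.0007). Without replicate 1 of siCtrl#1 the fitted values against siCtrl#1 were 4.21 and 4.89, since 1 count remained in that group. In the 8 comparisons of a single siRNA with a single control, the fitted log2 fold change of PLK2 ran from 2.22 to 4.03, and between 2.71% and 11.8% of all tested genes were called higher and between 1.69% and 10.1% lower. PLK2 did not pass the test between Tsg101 and Vps28 depletion (log2 -0.68, 95% interval -1.33 to -0.02, adjusted p = 0.179). The ratios, fitted values, intervals and p-values of PLK2 carry the same limit as its calls.

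**Figure D2:**
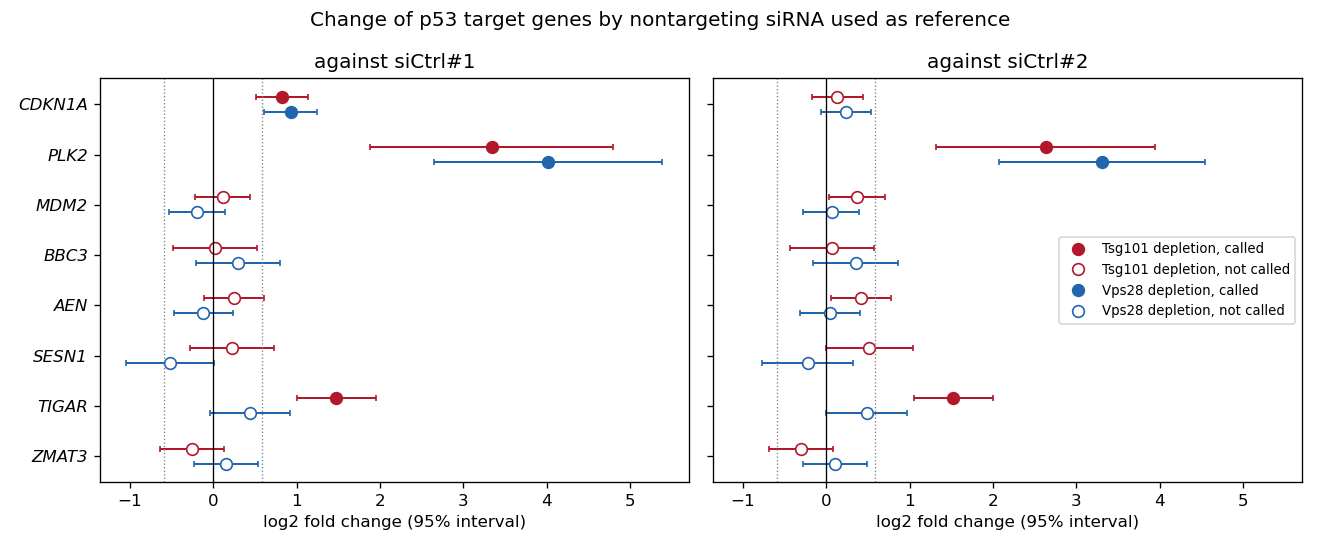
Log2 fold change (horizontal axis, with 95% interval) of each of the 8 genes upon Tsg101 depletion (red) or Vps28 depletion (blue), against siCtrl#1 on the left and siCtrl#2 on the right; filled points were called, open points were not, and dotted lines mark 1.5-fold. CDKN1A moves from 0.82 and 0.93 on the left to 0.13 and 0.24 on the right, while TIGAR keeps its calls upon Tsg101 depletion and PLK2, which passed the count minimum only through the depleted libraries, has the widest intervals.

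MDM2 (ENSG00000135679, chr12:69201957-69239324, plus strand of GRCh37), the feedback ligase, stayed close to its control level. Its libraries held 144, 121 and 134 CPM with siCtrl#1 and 68.2, 128 and 138 CPM with siCtrl#2, the first replicate of siCtrl#2 standing well below the rest. The siTsg101#1 libraries held 177, 150 and 154 CPM and the siTsg101#2 libraries 123, 141 and 125 CPM. The siVps28#1 libraries held 133, 121 and 105 CPM and the siVps28#2 libraries 120, 108 and 115 CPM. All 3 siTsg101#1 libraries were above every control library, the siVps28#2 libraries were below those of siCtrl#1, and the other groups overlapped both controls.

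Upon Tsg101 depletion MDM2 differed by log2 0.11 from siCtrl#1 (95% interval -0.22 to 0.45, edgeR adjusted p = 0.645) and by 0.37 from siCtrl#2 (0.03 to 0.71, adjusted p = 0.117). The latter rested on replicate 1 of siCtrl#2: within batches it was 1.11, 0.18 and 0.01, and without that library it was 0.11 (adjusted p = 0.608). Upon Vps28 depletion the differences were -0.19 (-0.52 to 0.14, adjusted p = 0.471) and 0.06 (-0.27 to 0.40, adjusted p = 0.867), the latter -0.19 without that library (adjusted p = 0.408). None of the 8 single-siRNA comparisons called it, the largest being siTsg101#1 against siCtrl#2 (log2 0.52, adjusted p = 0.0555). MDM2 carries one of the full p53 elements printed above. In GRCh37, 12.5% of the 50-base stretches of its exons also occur in other genes, and which part of the transcript the amplicon reads was not known.

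Neither gene of cell death was called. BBC3 (ENSG00000105327, chr19:47724079-47736023, minus strand) encodes PUMA, which binds the antiapoptotic BCL2 proteins. It held 12.5, 8.91 and 18.1 CPM with siCtrl#1 and 16.7, 9.41 and 12.9 CPM with siCtrl#2. Over the 12 depleted libraries it ranged from 10.8 to 19.99 CPM and overlapped both controls. The differences were log2 0.02 and 0.07 upon Tsg101 depletion and 0.30 and 0.35 upon Vps28 depletion, against siCtrl#1 and siCtrl#2 respectively, with edgeR adjusted p-values from 0.419 to 0.964 and intervals from -0.48 to 0.86. A change of BBC3 by 1.5-fold lay inside the intervals for Vps28 depletion.

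AEN (ENSG00000181026, chr15:89164568-89175512, plus strand), an exonuclease that takes part in apoptosis and holds a full p53 element in its promoter window, had 116, 88.5 and 108 CPM with siCtrl#1 and 130, 69.8 and 79.8 CPM with siCtrl#2. With siTsg101#1 it had 155, 121 and 124 CPM, and with siTsg101#2 135, 93.6 and 121 CPM. With siVps28#1 it had 101, 86.4 and 117 CPM, and with siVps28#2 99.1, 86.1 and 87.8 CPM. The siTsg101#1 libraries lay above those of siCtrl#1, and each other depleted group overlapped both controls. Within each batch AEN was higher upon Tsg101 depletion than with either control, by log2 0.18 to 0.32 against siCtrl#1 and by 0.16 to 0.62 against siCtrl#2. The differences over all batches were 0.25 (edgeR adjusted p = 0.298) and 0.42 (adjusted p = 0.0909), and with the batch as a block the latter had an adjusted p of 0.0187 but did not reach 1.5-fold. Replicate 1 was the highest of every siRNA group except siVps28#1. Without replicate 1 of siCtrl#2 the difference from siCtrl#2 was 0.73 (edgeR adjusted p = 0.00451) and AEN was called. That fit had no batch block and kept replicate 1 of the siTsg101 groups, so that 0.73 mixes batch with depletion. Within batch 1 the difference was 0.16. Upon Vps28 depletion its differences were -0.12 and 0.05 (adjusted p = 0.703 and 0.905).

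Of the metabolic targets, TIGAR differed between the subunits and SESN1 mainly between single siRNAs. TIGAR (ENSG00000078237, chr12:4416929-4469194, plus strand) encodes a fructose bisphosphatase that lowers glycolytic flux and oxidative stress. Its libraries held 8.84, 7.68 and 7.70 CPM with siCtrl#1 and 6.57, 7.43 and 9.25 CPM with siCtrl#2. With siTsg101#1 they held 22.1, 23.9 and 27.4 CPM and with siTsg101#2 22.8, 20.5 and 18.4 CPM. All 6 Tsg101-depleted libraries lay above every control library. With siVps28#1 they held 17.7, 10.3 and 7.1 CPM and with siVps28#2 9.42, 12.2 and 9.55 CPM. The siVps28#1 libraries overlapped the controls, and the siVps28#2 libraries lay just above the highest control library.

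TIGAR was 2.79-fold higher upon Tsg101 depletion than with siCtrl#1 (log2 1.48 ± 0.23, edgeR adjusted p = 4.34e-05) and 2.88-fold higher than with siCtrl#2 (log2 1.53 ± 0.23, adjusted p = 4.09e-05), and it was called with both siTsg101 siRNAs against both controls. Upon Vps28 depletion it differed by log2 0.44 (95% interval -0.04 to 0.92, adjusted p = 0.219) and 0.49 (0.00 to 0.97, adjusted p = 0.211). The difference between the depletions was itself called, at log2 1.04 ± 0.17 (2.06-fold, adjusted p = 0.000164), and stood at 0.78, 0.95 and 1.40 in the 3 batches. The nontargeting siRNAs did not differ in TIGAR by the test (log2 -0.05, adjusted p = 0.964). Exons of TIGAR share 1711 bases with the same-strand gene ENSG00000285901, and 19.9% of its 50-base stretches occur in other genes, so that these reads may not all be of TIGAR.

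SESN1 (ENSG00000080546, chr6:109305512-109416049, minus strand), a sestrin that restrains mTORC1 signaling, was called higher upon Tsg101 than upon Vps28 depletion, at log2 0.74 ± 0.20 (1.67-fold, edgeR adjusted p = 0.0185). SESN1 and TIGAR were the 2 genes called in that comparison, both higher, beside 4.16% of all tested genes called higher and 2.07% lower. The call of SESN1 was lost without replicate 1 of siTsg101#2 (log2 0.64, adjusted p = 0.066) and without replicate 2 of siVps28#2 (log2 0.67, adjusted p = 0.0506). Within batches the difference was 0.67, 0.79 and 0.57.

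The SESN1 libraries held 8.19, 9.97 and 9.63 CPM with siTsg101#1, above all 15 others. The siTsg101#2 libraries held 6.24, 4.67 and 3.99 CPM, those of siVps28#1 4.64, 5.04 and 4.35 CPM, and those of siVps28#2 4.06, 2.81 and 3.82 CPM. With siCtrl#1 they held 6.57, 3.69 and 6.84 CPM and with siCtrl#2 5.81, 3.47 and 5.01 CPM. The high level thus belonged to 1 of the siTsg101 siRNAs. SESN1 was 1.88-fold higher with siTsg101#1 than with siTsg101#2 (log2 0.91 ± 0.27, adjusted p = 0.0383), where 3.12% of all tested genes were called higher. It was called with siTsg101#1 against siCtrl#2 (log2 0.97, adjusted p = 0.0178) but not against siCtrl#1 (log2 0.68, adjusted p = 0.0733), unless the batch was kept as a block (adjusted p = 0.0417). Averaged over both siTsg101 siRNAs, it differed by 0.22 from siCtrl#1 and by 0.51 from siCtrl#2 (adjusted p = 0.535 and 0.155), and upon Vps28 depletion by -0.52 and -0.22 (adjusted p = 0.178 and 0.673). The lowest SESN1 library held 12 counts, and 363 bases of its exons lie antisense to another gene.

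ZMAT3 (ENSG00000172667, chr3:178677909-178790003, minus strand), which encodes a zinc finger protein that binds AU-rich RNA, was not called in the 6 comparisons. It held 21.7, 13.5 and 21 CPM with siCtrl#1 and 18.2, 16.3 and 24.1 CPM with siCtrl#2. The siTsg101#1 libraries held 16.4, 10.5 and 13.1 CPM of ZMAT3 and the siTsg101#2 libraries 19.4, 20.2 and 18.1 CPM. The siVps28#1 libraries held 18.9, 15.8 and 20.4 CPM and the siVps28#2 libraries 20.9, 24.1 and 28.1 CPM. The groups overlapped the controls, with siTsg101#1 at the low end and siVps28#2 at the high end. The difference between Tsg101 and Vps28 depletion was log2 -0.41 (95% interval -0.73 to -0.10, edgeR adjusted p = 0.0818) and was not called. Against the controls it differed by -0.26 and -0.30 upon Tsg101 depletion and by 0.16 and 0.11 upon Vps28 depletion, with adjusted p from 0.261 to 0.787. With the batch as a block, siTsg101#1 against siCtrl#2 was called lower (adjusted p = 0.0429).

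The correlations among the 8 genes over the 18 libraries were mixed in sign. Of the 28 pairs, 21 had a positive and 7 a negative Pearson correlation of log2 CPM, with a median of 0.18, from -0.52 (SESN1 with ZMAT3) to 0.68 (AEN with SESN1). These libraries share siRNAs and batches, so the values are a description. PLK2 and SESN1 rest on few reads, and the pairs with PLK2 carry the limit of its selection. Pairs of other genes were not examined for comparison. The genes most like CDKN1A over the 18 libraries were WWTR1 (r = 0.93), SEZ6L2 (r = 0.91) and ELL2 (r = 0.88), and those most like MDM2 were MCPH1 (r = 0.88), DTWD1 (r = 0.86) and MRPL44 (r = 0.85).

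To place the 8 genes in the pathway, a wider list of 45 p53 targets was examined, of which 39 were tested. This list and those below were chosen with earlier results of these data known, so that their counts are a description. Of these, 8 were called higher and 4 lower upon Tsg101 depletion against siCtrl#1 (median log2 0.08), beside 11.1% and 8.29% of all tested genes. Against siCtrl#2, 12 and 2 were called (median 0.33), beside 8.83% and 6.04%. Upon Vps28 depletion 7 were called higher and 4 lower against siCtrl#1 (median 0.05), beside 6.36% and 5.9%, and 9 and 2 against siCtrl#2 (median 0.31), beside 4.15% and 3.67%. In each comparison most of the list was not called, and BAX, an effector of apoptosis, and GADD45A, a growth arrest gene, were called in none of the 4. The log2 fold change of BAX ran from -0.57 to -0.04 and that of GADD45A from 0.40 to 0.56. Among the genes called lower, chosen for naming after their values were seen, were PIDD1, DDB2 and GDF15 upon either depletion and FDXR upon Tsg101 depletion against siCtrl#1, TNFRSF10D upon either depletion against siCtrl#2, and TM7SF3 upon Vps28 depletion against both controls. Between the nontargeting siRNAs 3 of the list were called higher, among them TNFRSF10D and CMBL, and 3 lower (DDB2, FDXR and GDF15). Of all tested genes, 1.41% were called higher there and 0.676% lower.

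The genes called higher in all 4 comparisons were SFN, PLK3, CD82, NINJ1 and CSF1, 5 of 39, where 1.77% of all tested genes were. With the list not chosen blind to these data, the 2 shares do not test it. SFN encodes 14-3-3 sigma, which holds mitotic kinases in the cytoplasm, and its log2 fold change ranged from 1.27 to 1.95. Its level depended on the single siRNA, being 71.8 ± 23.5 CPM in siTsg101#1 and 39.9 ± 2.33 CPM in siTsg101#2 libraries, 29.6 ± 8.41 CPM in siVps28#1 and 78.8 ± 18.7 CPM in siVps28#2 libraries, beside 20.02 ± 10.2 CPM in siCtrl#1 and 13.96 ± 5.48 CPM in siCtrl#2 libraries (SD, n = 3 each). PLK3, a kinase of the same family as PLK2, held 4.12 ± 0.31 and 4.03 ± 0.93 CPM with the nontargeting siRNAs and from 10.1 ± 0.50 to 15.8 ± 4.46 CPM with the 4 others. CD82, a tetraspanin of the plasma membrane and endosomes, had the largest mean log2 fold change of the wider list, 2.25, and rose from 9.64 ± 1.69 CPM with siCtrl#1 to between 29.1 ± 4.70 and 69.3 ± 28.05 CPM. NINJ1, which takes part in plasma membrane rupture, changed by log2 1.57 to 2.16, and CSF1, a macrophage growth factor, by 1.27 to 1.89. The largest edgeR adjusted p-value of these 5 genes in the 4 comparisons was 0.00267, for SFN upon Vps28 depletion.

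Among the other members of the wider list called more than once were the death receptor FAS, TP53INP1, which acts in autophagy and apoptosis, the sestrin SESN2 and the lysosomal protein DRAM1, all higher. SESN1 was not called upon Vps28 depletion, while SESN2 was higher by log2 1.07 (edgeR adjusted p = 0.00631) against siCtrl#1 and 0.99 (adjusted p = 0.0164) against siCtrl#2. DDB2, a DNA repair protein, was lower against siCtrl#1 by log2 -1.19 upon Tsg101 and -1.21 upon Vps28 depletion (adjusted p = 1.02e-05 and 1.61e-05) and was not called against siCtrl#2 (-0.43 and -0.46, adjusted p = 0.0769 and 0.0963). DDB2 was also lower with siCtrl#2 than with siCtrl#1 (log2 -0.76, adjusted p = 0.0358).

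GDF15, a secreted stress cytokine singled out after its values were seen, turned its sign with the control. It was called lower against siCtrl#1, by log2 -1.29 upon Tsg101 and -1.11 upon Vps28 depletion (edgeR adjusted p = 0.000135 and 0.000912), and called higher against siCtrl#2, by 0.72 and 0.90 (adjusted p = 0.0395 and 0.0189). Its level was 118 ± 23.0 CPM with siCtrl#1 and 29.5 ± 13.9 CPM with siCtrl#2 (log2 -2.01 between them, adjusted p = 0.000132). The siTsg101#1 libraries averaged 20.1 ± 2.48 CPM and the siTsg101#2 libraries 115 ± 36.6 CPM, those of siVps28#1 82.3 ± 8.42 CPM and those of siVps28#2 36.3 ± 10.8 CPM (SD, n = 3 each). The siRNAs of each pair thus differed in GDF15, with no overlap between the libraries of siTsg101#1 and siTsg101#2 or between those of siVps28#1 and siVps28#2.

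**Figure D3:**
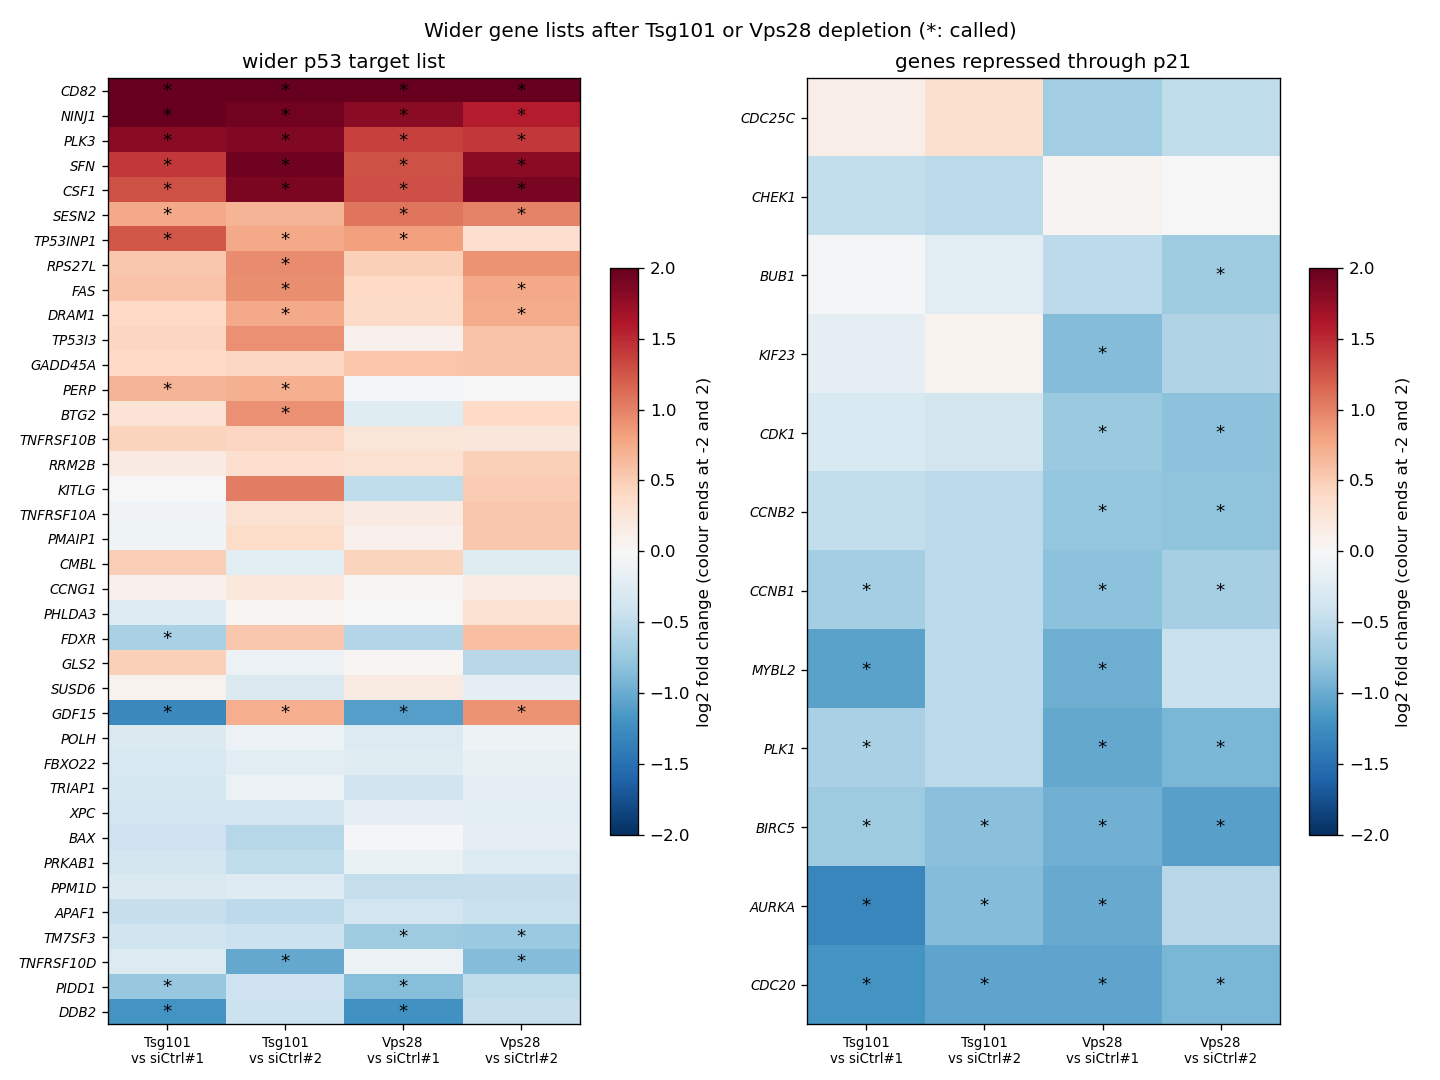
Log2 fold changes (color, ending at -2 and 2) of all but 1 of the 39 tested genes of the wider p53 target list on the left and of the 12 genes repressed through p21 on the right, in rows, for depletion of Tsg101 or Vps28 against each nontargeting siRNA, in columns; asterisks mark called genes. CD82, NINJ1, PLK3, SFN and CSF1 are called higher in all 4 columns, GDF15 changes sign with the control, and CDC20 and BIRC5 are called lower in all 4.

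Downstream of p21, cell cycle genes are repressed in arrested cells. Of 12 such genes, 6 were called lower upon Tsg101 depletion against siCtrl#1 and 3 against siCtrl#2, and 9 and 7 upon Vps28 depletion, with none called higher. Of all tested genes, 8.29%, 6.04%, 5.9% and 3.67% were called lower in these comparisons. Their median log2 fold changes were -0.57, -0.53, -0.84 and -0.69. CDC20, an activator of the anaphase-promoting complex, and BIRC5, which encodes survivin, were called lower in all 4 comparisons, as were 1.33% of all tested genes. CDC20 fell from 79.0 ± 18.5 CPM with siCtrl#1 and 71.7 ± 5.54 CPM with siCtrl#2 to between 24.3 ± 3.65 and 48.4 ± 7.12 CPM. BIRC5 fell from 169 ± 15.4 and 184 ± 12.2 CPM to between 77.2 ± 2.68 and 109 ± 17.5 CPM. Among the other cell cycle genes called lower in at least 2 of the comparisons were CCNB1, PLK1, AURKA and MYBL2. Between the nontargeting siRNAs none of the 12 was called, beside 1.41% of all tested genes called higher and 0.676% lower. Their median difference there was log2 -0.13. Whether p21 had a part in their change was not tested.

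Of 13 regulators of p53, 3 were called higher upon Tsg101 depletion against siCtrl#1 (ATM, RCHY1 and EP300) and 1 against siCtrl#2 (ATM), beside 11.1% and 8.83% of all tested genes. Upon Vps28 depletion the acetyltransferase gene KAT5 was called higher against siCtrl#1 and RCHY1 lower against siCtrl#2, beside 6.36% and 3.67% of all tested genes. RCHY1, which encodes a ubiquitin ligase that acts on p53, exceeded its siCtrl#1 level under siCtrl#2 by log2 1.39 (edgeR adjusted p = 0.00555), more than in either comparison of a depletion that called it (0.78 and -0.95). Upon Tsg101 depletion against siCtrl#2 it differed by -0.61 (adjusted p = 0.0507), and with the batch as a block it was called lower there as well (-0.60, adjusted p = 0.0349). ATM, the kinase that signals DNA breaks to p53, was higher upon Tsg101 depletion by log2 1.87 against siCtrl#1 and 1.65 against siCtrl#2 (edgeR adjusted p = 1.49e-06 and 8.17e-06). Upon Vps28 depletion it differed by 0.64 and 0.42 (adjusted p = 0.0608 and 0.279), and the difference between the depletions was log2 1.23 ± 0.16 (adjusted p = 1.07e-05). Its libraries averaged 4.40 ± 0.63 CPM with siCtrl#1 and 16.7 ± 2.53 CPM with siTsg101#1 (SD, n = 3).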

How the data were processed

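Transcripts of 18 RKO samples were amplified by the authors with the Ion AmpliSeq Transcriptome panel, sequenced on an Ion Proton and aligned to the panel's hg19 reference. The authors deposited raw read counts per target for each library, made with HTSeq 0.6.0 per the submitters' processing notes, with no normalization. The strand setting is not given in the sources used here, and amplicon positions were not analysed here. Of 20802 targets, 20228 matched a symbol in RefSeq and 574 did not. Reads without a feature (48.23% to 49.07%) were left out.

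As in the study's methods, targets with more than 100 summed counts (10632) that were not noncoding (420 removed) were tested, 10212 in all. The counts were fitted with edgeR 4.0.16 in R 4.3.3 (TMM, quasi-likelihood test, 6 siRNA groups in 1 model). Calls needed 1.5-fold and an adjusted p under 0.05. Log2 CPM within batches and for correlations used a prior count of 2. Amplified reads carry no molecular identifiers, so counting intervals cover counting error only. Overlap and shared stretches of 50 bases were measured over whole exons in GRCh37. The fits were tested on simulated data for Tsg101 depletion against siCtrl#1 only, without batch effects in the simulation.

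Named beside the 8 genes are the list genes called the same way in all 4 comparisons, at most 5 per direction with the largest mean change among those called in at least 2, the 3 genes most correlated with CDKN1A and with MDM2, and line markers. The other list genes in the text, among them BAX, GADD45A, GDF15 and RCHY1, were named outside this rule. Members and lists were chosen with earlier results of these data known. Alternatives were DESeq2 1.42.0, RLE size factors, other count filters, the batch as a block, the adjusted p alone, a model holding just the compared groups, and leaving out each library. The labels give the replicate number as the batch, so the numbers pair the libraries. Over 45 same-numbered pairs the deviations from the group means correlated by 0.145 on average (-0.148 to 0.389), 30 of them over 0.1. The values of 1 gene of the wider list are not reported here.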

Additional observations from a re-analysis of the deposited data

Results flagged for a closer look

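TIGAR was higher upon Tsg101 than upon Vps28 depletion by log2 1.04 ± 0.17 (edgeR test of the difference itself, adjusted p = 0.000164), in all 3 batches. SESN1 was higher by log2 0.74 ± 0.20 (edgeR adjusted p = 0.0185), also in all 3 batches, but the call was lost without replicate 1 of siTsg101#2 (log2 0.64, adjusted p = 0.066) or replicate 2 of siVps28#2 (log2 0.67, adjusted p = 0.0506). The siRNAs against Tsg101 differed from each other in SESN1, by log2 0.91 ± 0.27 (siTsg101#1 higher, edgeR adjusted p = 0.0383), so that the SESN1 value averages a high and a low siRNA.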

How the results depend on the processing

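The number of the 8 genes called stayed within 1.5 times in 44 of 48 alternative counts and in 101 of 108 counts with 1 library left out. With at least 10 counts required in every library, PLK2 is removed, and 1 gene was called upon Tsg101 depletion against siCtrl#2, 1 upon Vps28 depletion against siCtrl#1 and 0 against siCtrl#2. With only the groups compared in the fit, 0 were called between the nontargeting siRNAs. With 1 library left out, 0 to 1 were called there and 1 to 2 between the depletions. With the replicate number as a block, the counts for the 6 comparisons were 3, 2, 2, 1, 1 and 2, and in these comparisons the pairing changed no call of the 8 genes. Of the single-gene values, 377 of 378 kept direction and side of the threshold under the other settings, and 838 of 864 with a library left out. The sign of 9 values that had not been called turned when a library was left out: BBC3 upon Tsg101 depletion (-0.18 to 0.33 against siCtrl#1, -0.11 to 0.28 against siCtrl#2) and between controls (-0.27 to 0.26), ZMAT3 upon Vps28 depletion (-0.018 to 0.263 and -0.006 to 0.293) and between controls (-0.14 to 0.16), MDM2 and AEN upon Vps28 depletion against siCtrl#2 (-0.19 to 0.25 and -0.12 to 0.36), and TIGAR between controls (-0.205 to 0.051). Of the lists, the wider p53 targets called lower upon Tsg101 depletion against siCtrl#2 went from 2 to 4 and 5 without replicates 2 and 3 of siCtrl#2 and to 5 by the adjusted p alone, the p21-repressed genes from 3 to 7 without replicate 2 of siTsg101#1 and to 6 by the adjusted p alone, and the wider targets called higher upon Vps28 depletion against siCtrl#2 from 9 to 5 without replicate 3 of siCtrl#2. All genes called between the nontargeting siRNAs numbered 213, and 89 with only these groups in the fit, 327 with the block, 359 without a count filter and 97 to 439 with 1 library left out. By the adjusted p alone, 1207 genes differed between the depletions in place of 636. The cause of these changes was not tested.

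PLK2, at 0 to 30 counts per library, and SESN1, at 12 to 69, rest on few reads. Each gene is read by 1 amplicon, which cannot tell transcript isoforms apart, and reads shared with overlapping genes cannot be assigned where the strand setting is unknown. All libraries come from 1 cell line at 1 time point.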
